A study of Mus musculus with 6 samples.

Results

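The genes described here are 36 interferon-induced antiviral genes, leaving out the oligoadenylate synthetase family, among the 24951 genes counted in endothelial cells of the mouse lung at postnatal day 5. They were chosen as a list of gene names, with the comparison of mutant and control libraries already known. Their differences between the groups are therefore given as a description. No p-value is printed for any of them, and where they are said to be called by an adjusted p, the call is also only a description. The mutant pups (n = 3) carried floxed Smad4 alleles together with Cdh5-CreERT2, written Smad4 f/f;Cdh5-CreERT2 in the protocol and Smad4 iECKO mutant in the genotype label. The control pups (n = 3) were Smad4 f/f without the Cre transgene, and the genotype label calls them wildtype, so the floxed alleles are shared by both groups and no group carries Cre together with intact Smad4. Cdh5-CreERT2 is a Cre recombinase made under the promoter of the endothelial cadherin gene and switched on by tamoxifen, whose dose and day the labels do not give, nor whether the control pups received it. The column names of all 6 libraries share a tag, lit14, whose meaning is not given. Endothelial cells were captured from digested lung on magnetic beads that bind CD31, a surface protein of these cells, and polyadenylated RNA was sequenced.

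Interferons are secreted proteins that bind receptors on the cell surface and, through the kinases JAK1 and TYK2, activate transcription factors, among them STAT2 with its partner IRF9. These enter the nucleus and bind a short repeat, the interferon-stimulated response element, near the start of their target genes. The products of these genes block viral entry, copying, translation or release, and several of them also feed back on the interferon pathway, as IRF7 does by driving further interferon and USP18 by damping the receptor.

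Each library held 14093564 to 21113926 reads assigned to genes, and the values below are CPM, which are counts per 1000000 assigned reads after scaling. Smad4, the targeted gene, had 88.8, 72.9 and 94.2 CPM in mutant replicates 1, 2 and 3, against 188, 177 and 181 CPM in control replicates 1, 2 and 3, a log2 fold change of -1.09 (SE 0.10, edgeR adjusted p = 0.000604). The endothelial markers were plentiful in every library, and markers of other lung cells, given further below, were present too. The 10 markers on the endothelial list, among them Pecam1 and Cdh5, summed to 10105 to 10537 CPM in mutant libraries and 9599 to 10755 CPM in control libraries. Of the 10, Tek was called lower in mutants (edgeR adjusted p = 0.0128), a call lost without control replicate 3 (0.0540) or mutant replicate 2 (0.0760). Because the RNA is from many cells, more cells making a transcript and more of it per cell cannot be told apart in any value below.

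All 36 genes passed the filter on low counts, and 34 of them had a log2 fold change above 0 for mutant over control. The median log2 fold change over the 36 was 1.43, beside -0.0024 over all 14934 genes tested. In 30 genes the 3 mutant libraries all lay above the 3 control libraries, a pattern that 11.6% of all genes tested showed. By edgeR's quasi-likelihood test with Benjamini-Hochberg adjustment over all genes, 26 of the 36 were called higher in mutants, 0 were called lower and 10 did not pass, where 1.93% of all genes tested were called higher and 1.34% lower. The genes were chosen on this contrast, so nothing is read from that gap. The 10 that did not pass were Ifit3, Ifit2, Herc6 and Epsti1, whose groups did not overlap, and Uba7, Trim21, Trim25, Ifi27, Ifitm1 and Ifitm2, whose groups did. P-values here measure the spread between these samples, which the protocol calls independent biological samples. Mx1, Apol9a and Apol9b passed the filter only through the mutant libraries, with every control library under 0.517 CPM on unscaled library sizes, and of the other 33 genes 23 were called, with a median log2 fold change of 1.39. The count of 26 became 13, 14 and 12 when control replicate 1, 2 or 3 was left out, and 15 without mutant replicate 2. Calls higher over all genes tested also fell in those fits, from 288 to 224, 159 and 191, and to 131 without mutant replicate 2. Of the 36 genes, 10 were called in each of the 13 alternative fits: Ifi44, Usp18, Rtp4, Cmpk2, Parp9, Parp14, Samd9l, Eif2ak2, Ifitm3 and Adar. These fits reuse the libraries on which the genes were chosen, so they are no independent support. The share of all genes called in every fit was not counted, so the 10 are a description.

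**Figure D1:**
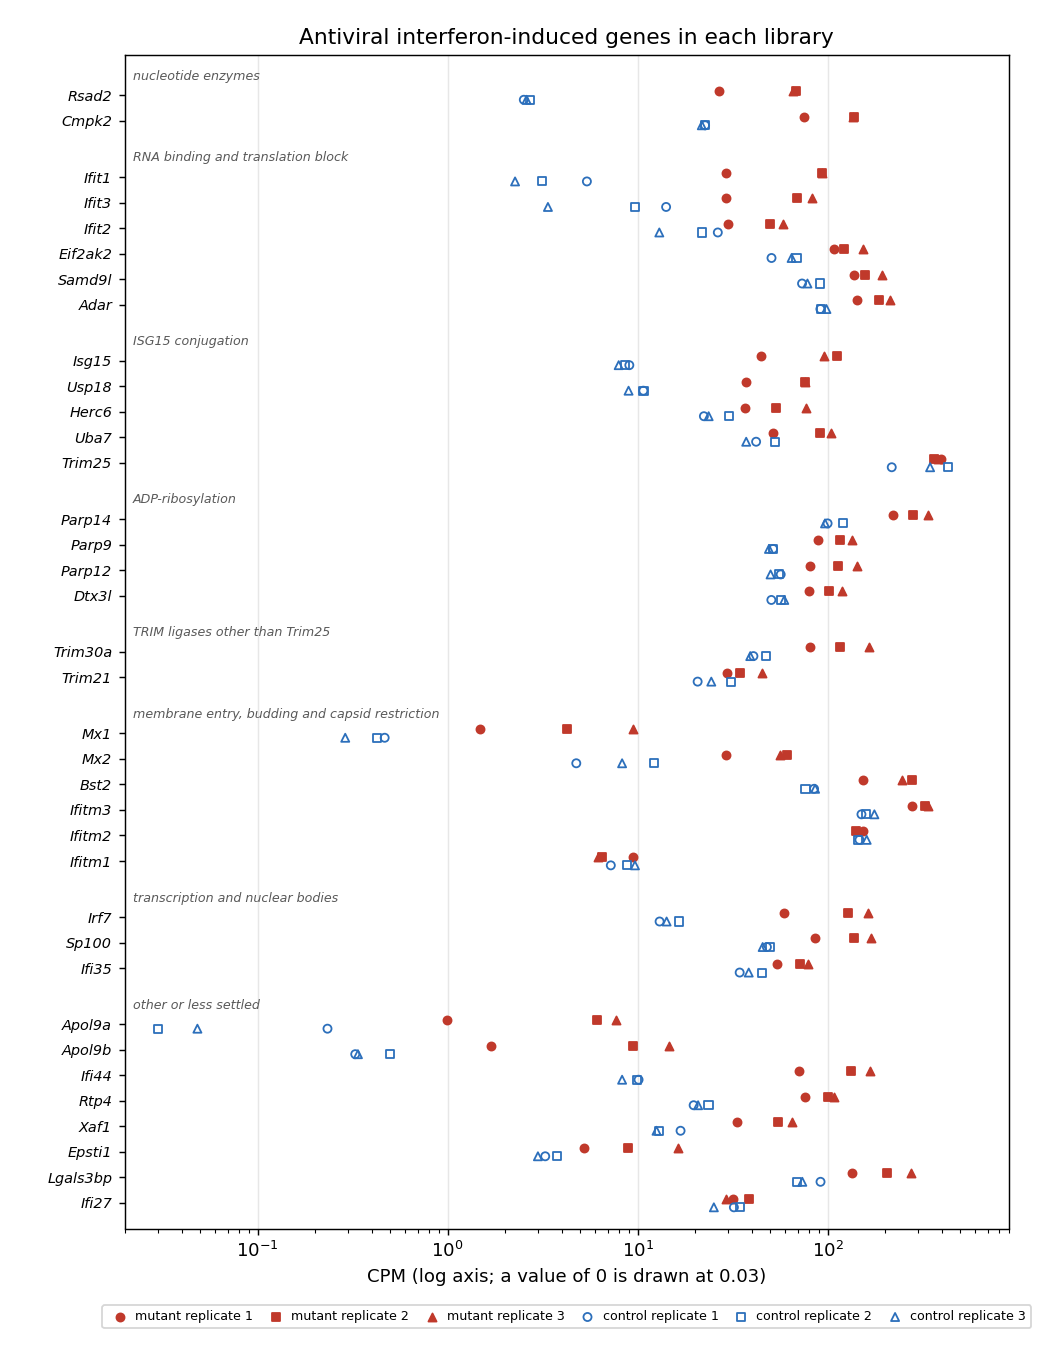
CPM of each of the 36 genes in the 3 mutant libraries (filled) and the 3 control libraries (open) on a log axis, grouped by role. In 30 of the 36 rows all 3 mutant points lie to the right of all 3 control points, and in most rows mutant replicate 1 is the mutant point nearest to the controls.

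The promoters of some of these genes are shown because they carry the letters that these transcription factors are known to bind. RefSeq windows of 300 bases on GRCm38.p6, from 250 bases before the annotated start of the gene, were found for 29 of the 36 genes. The core of the response element, searched on both strands as the letters GAAA, any 2 bases and GAAA again, with overlapping matches counted, was present in at least 1 window of 12 of the 29 genes (41.4%). Over all 27025 genes with such a window the share was 3.99%. The longer form, in which CT follows, was present for 7 of the 29 genes (24.1%) and for 0.303% of all genes. The 12 genes with the core had log2 fold changes of -0.04 to 5.47 with a median of 2.13. The 17 genes without it had -0.22 to 3.71 with a median of 1.15, so the ranges overlapped. Among the 12 were Apol9a and Apol9b, at 5.47 and 4.49, close copies that passed the filter only through the mutant libraries. No median was taken without them, so nothing is read from the gap between the medians. A match is a string of letters and not a measured binding site. The windows below are those of Rsad2, Ifit1 and Isg15, with some of the largest differences, and of the neighbours Ifitm3 and Ifitm2, which lie in the same gene cluster and had log2 fold changes of 0.95 and -0.04. Capitals mark every match to the core, and each sequence runs 5′ to 3′ on the strand of its gene.
Rsad2 (chr12:26456403-26456702, minus strand): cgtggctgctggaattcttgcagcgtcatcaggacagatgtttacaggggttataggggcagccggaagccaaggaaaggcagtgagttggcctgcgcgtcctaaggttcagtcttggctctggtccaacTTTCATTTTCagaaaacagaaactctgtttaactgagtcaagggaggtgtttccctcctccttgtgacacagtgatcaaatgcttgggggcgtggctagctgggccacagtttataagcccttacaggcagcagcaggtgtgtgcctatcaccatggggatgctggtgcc
Ifit1 (chr19:34640639-34640938, plus strand): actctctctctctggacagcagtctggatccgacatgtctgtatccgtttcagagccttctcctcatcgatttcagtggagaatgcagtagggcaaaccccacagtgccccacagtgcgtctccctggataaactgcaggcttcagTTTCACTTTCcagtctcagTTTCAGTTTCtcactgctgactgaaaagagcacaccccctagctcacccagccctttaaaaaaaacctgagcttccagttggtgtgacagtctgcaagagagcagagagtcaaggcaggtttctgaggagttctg
Isg15 (chr4:156200769-156201068, minus strand): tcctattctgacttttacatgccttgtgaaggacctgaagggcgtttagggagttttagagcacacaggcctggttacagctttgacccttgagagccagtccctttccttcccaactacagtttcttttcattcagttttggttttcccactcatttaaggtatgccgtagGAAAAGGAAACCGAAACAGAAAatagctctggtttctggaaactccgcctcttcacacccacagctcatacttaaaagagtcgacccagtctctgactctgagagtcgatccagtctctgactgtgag
Ifitm3 (chr7:141010695-141010994, minus strand): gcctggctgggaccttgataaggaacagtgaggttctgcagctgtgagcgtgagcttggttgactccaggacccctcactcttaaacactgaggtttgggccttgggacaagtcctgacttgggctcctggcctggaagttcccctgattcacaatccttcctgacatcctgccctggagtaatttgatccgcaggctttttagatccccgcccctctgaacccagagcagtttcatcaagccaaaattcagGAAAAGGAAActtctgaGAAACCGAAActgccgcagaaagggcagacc
Ifitm2 (chr7:140955912-140956211, minus strand): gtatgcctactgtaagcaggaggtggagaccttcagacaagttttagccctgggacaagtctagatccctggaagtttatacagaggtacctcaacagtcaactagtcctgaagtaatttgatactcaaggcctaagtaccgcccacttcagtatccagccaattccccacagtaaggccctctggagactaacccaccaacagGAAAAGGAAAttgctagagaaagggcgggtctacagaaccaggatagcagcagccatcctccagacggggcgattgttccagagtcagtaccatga
Ifit1 held 2 matches on the strand opposite to the gene, at -104 and -85 counted from the annotated start, and both continued into the longer form. Isg15 held 3 overlapping matches on its own strand, which run together as a single stretch of capitals from -78. Rsad2 held 1, on the opposite strand, at -120. In Ifitm3 the 2 matches fell just after the annotated start, at 3 and 20, whereas in Ifitm2 a single match lay before it, at -46. The windows of Ifi44, Irf7 and Cmpk2 held no match to these letters, although these genes were among those with large differences.

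**Figure D2:**
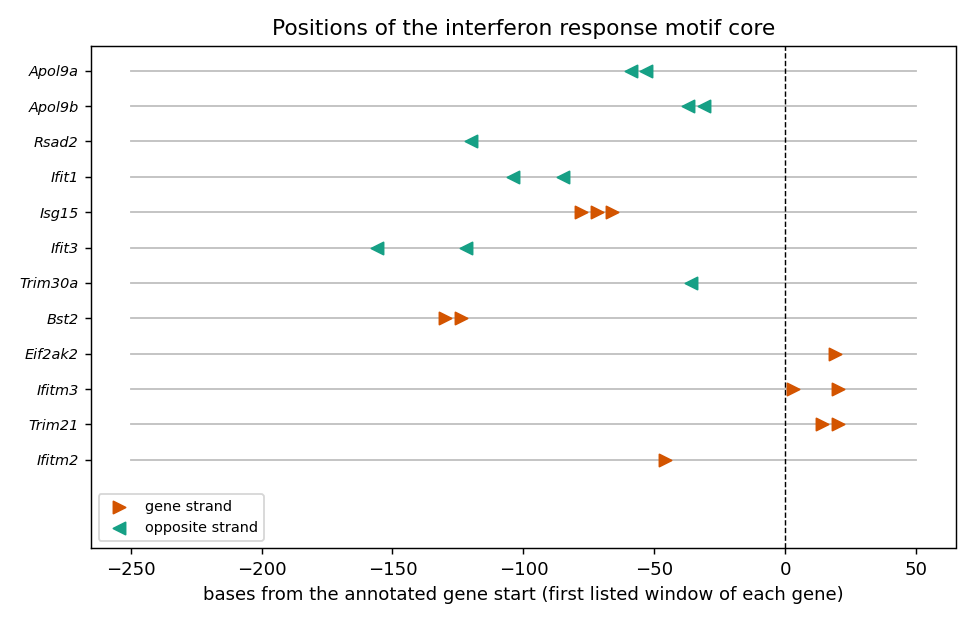
Positions of the core motif in the RefSeq promoter windows of the 12 genes that hold it, in bases from the annotated start (dashed line), with the direction of each match shown by the arrowhead. Genes run downward from the largest to the smallest log2 fold change, from Apol9a with 5.47 to Ifitm2 with -0.04, and matches lie between -156 and 20.

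The enzymes that act on nucleotides had large differences. Rsad2 encodes viperin, which converts CTP into a chain-terminating nucleotide, and lies on chromosome 12 from 26442746 to 26456452 on the minus strand. It had 26.7, 68.2 and 66.0 CPM in mutant replicates 1, 2 and 3, against 2.52, 2.71 and 2.60 CPM in control replicates 1, 2 and 3. The lowest mutant library was 9.88-fold above the highest control library, the widest gap among the 36 genes, and its log2 fold change was 4.36 (SE 0.41). Cmpk2, a mitochondrial nucleotide kinase gene, is the neighbour of Rsad2 on the opposite strand, from 26469204 to 26479837. Its values were 74.8, 138 and 137 CPM in mutant libraries and 22.7, 22.7 and 21.8 CPM in control libraries, a log2 fold change of 2.38 (SE 0.23). In both neighbours the control libraries were nearly alike, mutant replicates 2 and 3 were nearly alike, and mutant replicate 1 lay between them.

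Genes whose products bind foreign RNA or block its translation had log2 fold changes of 0.94 to 4.31. IFIT proteins grip the ends of viral RNA, and their genes lie side by side on chromosome 19. Ifit1 had 29.3, 94.0 and 93.8 CPM in mutant libraries and 5.41, 3.13 and 2.27 CPM in control libraries, a log2 fold change of 4.31 (SE 0.60). Ifit3 had 29.3, 69.4 and 83.3 CPM in mutant libraries and 14.1, 9.68 and 3.38 CPM in control libraries, a log2 fold change of 2.74 (SE 0.62). The controls of Ifit3 were spread wider than those of most genes here, yet did not overlap the mutants. Ifit2 had 29.9, 49.9 and 58.4 CPM in mutant libraries and 26.5, 21.8 and 13.02 CPM in control libraries, so mutant replicate 1 lay only 1.13-fold above control replicate 1. In all 3 Ifit genes control replicate 1 was the highest control and control replicate 3 the lowest. Reads of the Ifit genes may be split among close relatives, so the values are uncertain as single genes.

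The other RNA-binding genes had smaller differences, which were more even among the mutant libraries. Eif2ak2, which encodes the kinase PKR that halts translation on sensing double-stranded RNA, had 108, 121 and 154 CPM in mutant libraries and 50.7, 68.6 and 64.7 CPM in control libraries, a log2 fold change of 1.06 (SE 0.16). Adar, an editor of double-stranded RNA that keeps a cell's own transcripts from being sensed, had 142, 187 and 213 CPM in mutant libraries and 91.7, 92.1 and 98.7 CPM in control libraries, a log2 fold change of 0.94 (SE 0.13). Samd9l, whose product restrains translation, averaged 163 ± 28.8 CPM in mutant and 81.1 ± 9.29 CPM in control libraries (SD, n = 3 each). For these 3 genes the groups did not overlap, and the differences were close to 2-fold, at 2.09-fold, 1.92-fold and 2.01-fold.

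ISG15 is a ubiquitin-like protein that is attached to other proteins by an activating enzyme, UBA7, a conjugating enzyme, UBE2L6, and ligases such as HERC6 in the mouse, and is removed by USP18. The modifier and its remover stood furthest apart between the groups. Isg15 had 44.9, 112 and 95.6 CPM in mutant libraries and 9.05, 8.62 and 7.96 CPM in control libraries, a log2 fold change of 3.30 (SE 0.35). Usp18 had 37.4, 76.0 and 76.1 CPM in mutant libraries and 10.7, 10.8 and 8.97 CPM in control libraries, a log2 fold change of 2.64 (SE 0.29). The attaching enzymes on the list differed less. Herc6 averaged 56.1 ± 20.3 CPM in mutant and 25.4 ± 4.20 CPM in control libraries (SD, n = 3 each), with groups that did not overlap. Uba7 had 51.9, 90.8 and 104 CPM in mutant libraries and 42.1, 52.6 and 37.3 CPM in control libraries, so mutant replicate 1 lay just under control replicate 2. Trim25, a ubiquitin ligase that also acts on ISG15, overlapped fully. It had 395, 363 and 379.6 CPM in mutant libraries and 218, 431 and 347 CPM in control libraries, a log2 fold change of 0.19 (SE 0.22), and the wide spread of its controls came from a low control replicate 1.

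The genes of ADP-ribosylation were all higher by similar amounts. PARP9 and its partner DTX3L form a complex that modifies ubiquitin and histones, and PARP12 and PARP14 add single ADP-ribose units to proteins. Parp14 had 220.4, 281 and 338 CPM in mutant libraries and 100.1, 121 and 97.02 CPM in control libraries, a log2 fold change of 1.40 (SE 0.16). Parp9 had 88.6, 116 and 135 CPM in mutant libraries and 51.7, 51.8 and 49.2 CPM in control libraries, a log2 fold change of 1.15 (SE 0.14). Parp12 and Dtx3l had log2 fold changes of 1.05 and 0.86 with SEs of 0.19 and 0.14. No mutant library overlapped a control library in any of the 4 genes. Parp9 and Dtx3l overlap at their starts on opposite strands of chromosome 16, from 35938470 to 35972605 and from 35926511 to 35939151, and whether counting used the strand is not given, so reads of the shared stretch cannot be assigned with certainty.

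The other TRIM ubiquitin ligases had different fold changes. Trim30a, a mouse gene whose product dampens inflammatory signalling, had 80.8, 116 and 166 CPM in mutant libraries and 40.7, 47.3 and 39.2 CPM in control libraries, a log2 fold change of 1.52 (SE 0.25). Trim21, a cytosolic receptor for antibody-coated virus, had 29.4, 34.5 and 45.3 CPM in mutant libraries and 20.7, 31.1 and 24.4 CPM in control libraries, and mutant replicate 1 fell below control replicate 2. The Trim30 genes form a family of similar sequence, so the reads of Trim30a may be split.

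Factors that act at membranes and capsids had log2 fold changes from -0.22 to 3.68. Ifitm3, which blocks fusion of virus with endosomes, had 278, 324 and 338 CPM in mutant libraries and 151, 159 and 176 CPM in control libraries, a log2 fold change of 0.95 (SE 0.10). Its neighbours on chromosome 7 had values that overlapped between the groups. Ifitm2 had 154, 141 and 144 CPM in mutant libraries and 147, 144 and 161 CPM in control libraries, a log2 fold change of -0.04 (SE 0.08). Ifitm1 had 9.44, 6.53 and 6.19 CPM in mutant libraries and 7.23, 8.83 and 9.69 CPM in control libraries, a log2 fold change of -0.22 (SE 0.21). No other gene of the 36 had a log2 fold change under 0. Per kilobase of annotated exon, Ifitm3 had the highest level of all 36 genes in both groups, 462 CPM per kilobase in mutant and 239 in control libraries, and Ifitm2 stood beside it in controls at 230.2. Bst2, which encodes tetherin, the protein that holds budding virions on the cell, had 153, 278 and 248 CPM in mutant libraries and 84.97, 76.5 and 86.0 CPM in control libraries, a log2 fold change of 1.46 (SE 0.21).

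The Mx genes encode dynamin-like GTPases that trap viral capsids. Mx2 had 29.2, 61.1 and 56.4 CPM in mutant libraries and 4.76, 12.2 and 8.29 CPM in control libraries, a log2 fold change of 2.56 (SE 0.41). GENCODE M21 classes Mx2 as a polymorphic pseudogene in the reference strain, and the strain of the pups is not stated in the labels. Mx1 rested on few reads. It had 1.48, 4.27 and 9.41 CPM in mutant libraries and 0.467, 0.427 and 0.289 CPM in control libraries, which rest on 22 reads in the 3 controls together. The highest mutant library of Mx1 was 6.35-fold above the lowest.

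The nuclear factors were all higher. Irf7, the master regulator of the interferon-alpha genes, had 59.0, 128 and 164 CPM in mutant libraries and 13.1, 16.6 and 14.2 CPM in control libraries, a log2 fold change of 3.01 (SE 0.39). Sp100, a core protein of PML nuclear bodies, had 86.4, 137 and 170.0 CPM in mutant libraries and 48.0, 49.99 and 45.6 CPM in control libraries, a log2 fold change of 1.46 (SE 0.23). Ifi35, a leucine-zipper protein, averaged 68.2 ± 12.7 CPM in mutant and 39.3 ± 5.31 CPM in control libraries (SD, n = 3 each). Irf7 thus differed more than the other nuclear members, at 8.03-fold, beside 2.74-fold for Sp100 and 1.74-fold for Ifi35.

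The remaining 8 genes have less settled or unrelated roles. Ifi44, a cytosolic protein often used as a marker of the interferon response, had 70.7, 133 and 167 CPM in mutant libraries and 10.1, 9.97 and 8.29 CPM in control libraries, a log2 fold change of 3.71 (SE 0.33). Rtp4, a chaperone of receptors at the cell surface, had 75.7, 100.1 and 109 CPM in mutant libraries and 19.7, 23.6 and 20.8 CPM in control libraries, a log2 fold change of 2.15 (SE 0.14). The mutant libraries of Rtp4 were close to each other, the highest 1.43-fold above the lowest. Xaf1, a pro-apoptotic partner of XIAP, averaged 51.1 ± 15.9 CPM in mutant and 14.1 ± 2.36 CPM in control libraries, and Lgals3bp, a secreted galectin-binding protein, averaged 205 ± 70.3 CPM in mutant and 78.1 ± 12.1 CPM in control libraries (SD, n = 3 each). Epsti1 had 5.22, 8.91 and 16.2 CPM in mutant libraries and 3.27, 3.77 and 2.99 CPM in control libraries. Ifi27, a mitochondrial protein, had groups that overlapped, with 31.6, 38.5 and 29.1 CPM in mutant libraries and 32.1, 34.7 and 25.2 CPM in control libraries.

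Apol9a and Apol9b, apolipoprotein L genes of the mouse, had the highest fold changes of the 36 and the fewest reads in the control libraries. Apol9b had 1.70, 9.42 and 14.6 CPM in mutant libraries and 0.327, 0.498 and 0.338 CPM in control libraries, which rest on 21 control reads in all. Apol9a had 0.988, 6.15 and 7.71 CPM in mutant libraries and 0.233, 0 and 0.0482 CPM in control libraries, which rest on 6 control reads in all. Their log2 fold changes were 4.49 and 5.47 with SEs of 0.87 and 1.07, so the size is loosely known. These genes are close copies of each other, and reads that fit both may have been split or dropped.

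**Figure D3:**
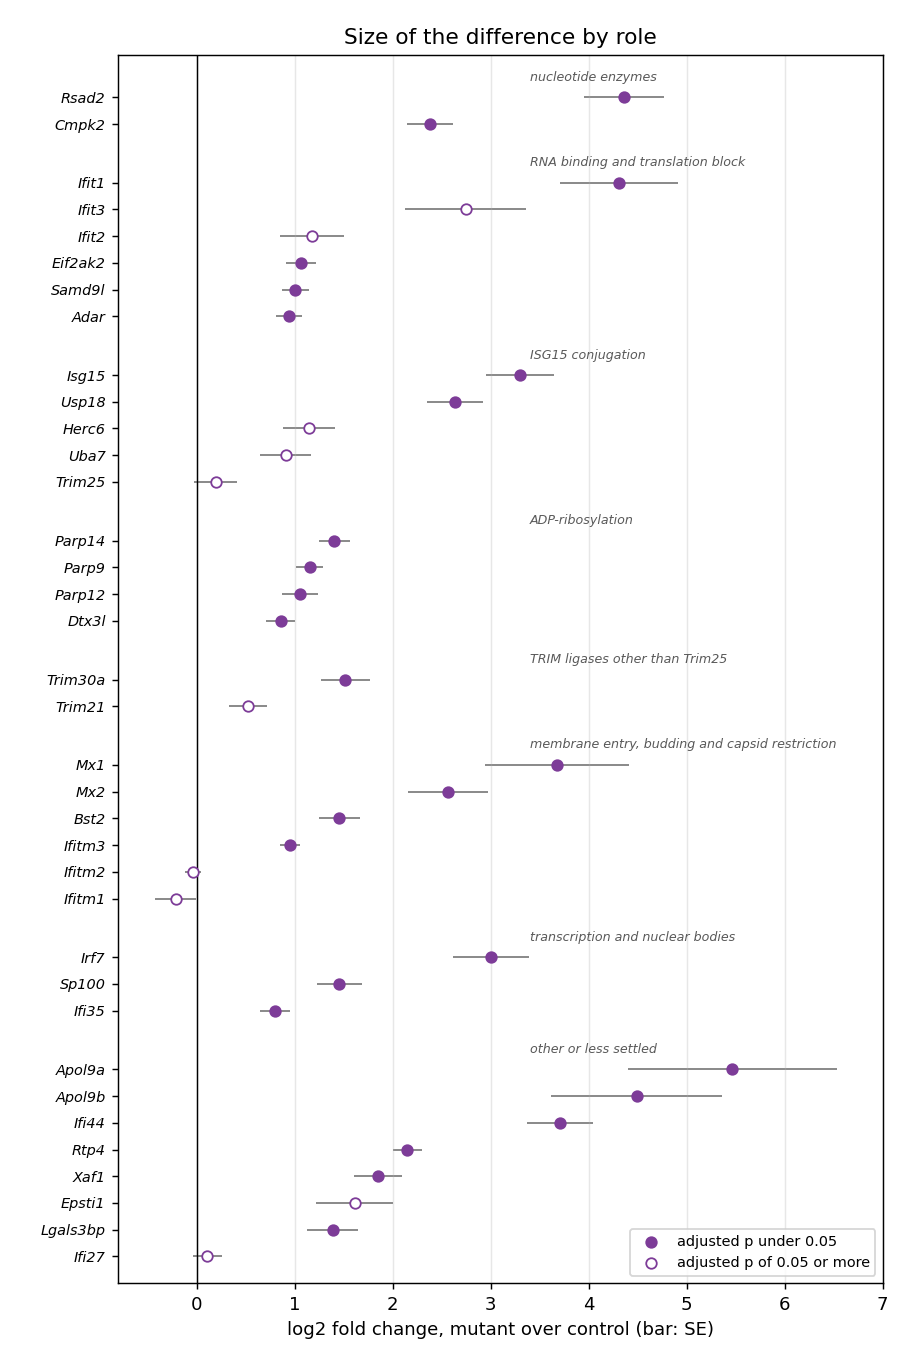
Log2 fold change of mutant over control for each of the 36 genes, with its SE as a bar, grouped by role and sorted within each role. Filled points are the 26 genes called by edgeR at an adjusted p under 0.05, which are a description because the genes were chosen on this contrast, and the points run from -0.22 (Ifitm1) to 5.47 (Apol9a).

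Summed by role, the nucleotide enzymes had the largest ratio of mutant to control and the ISG15 group the smallest. Rsad2 and Cmpk2 together came to 170.2 ± 59.5 CPM in mutant and 25.0 ± 0.537 CPM in control libraries, a ratio of 6.81 (SD, n = 3 each). The 3 nuclear factors summed to 316 ± 108 CPM in mutant and 102 ± 8.59 CPM in control libraries, a ratio of 3.11. The 6 RNA-binding genes had a ratio of 2.41, the 2 TRIM genes 2.32, the 4 ADP-ribosylation genes 2.27, the 6 membrane and capsid genes 1.81 and the 5 ISG15 genes 1.58, and the 8 remaining genes had 3.37. Sums follow their most abundant members, and in the ISG15 group Trim25 alone made up much of the level in both groups. By the median fold of its genes the ISG15 group stood at 2.22, beside 2.17 for the RNA-binding, 2.15 for the ADP-ribosylation and 2.03 for the TRIM genes. Above it stood the membrane and capsid genes at 2.30, the nuclear factors at 2.74, the remaining genes at 4.00 and the nucleotide enzymes at 10.3. The order thus changed only among the lower groups. Role groups of 2 to 8 genes were set with the values known, and no difference between roles was tested.

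The fold change was larger where the control CPM was lower. CPM is not divided by transcript length, so the bins below sort genes by reads and not by molecules. The 11 genes with a control mean under 10 CPM had a median log2 fold change of 3.68, the 21 genes between 10 and 100 CPM a median of 1.15, and the 4 genes at 100 CPM or more a median of 0.57. The Spearman correlation of control level with log2 fold change was -0.72 across the 36 genes and 0.016 across all 14934 genes tested. Without Mx1, Apol9a and Apol9b, which passed the filter only through the mutant libraries, the median of the lowest bin was 3.02 (8 genes) and the correlation -0.64 (33 genes). The control libraries enter both quantities, and genes are not independent replicates. Ifitm1 went against the pattern, with a control mean of 8.58 CPM and a fold change under 0.

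**Figure D4:**
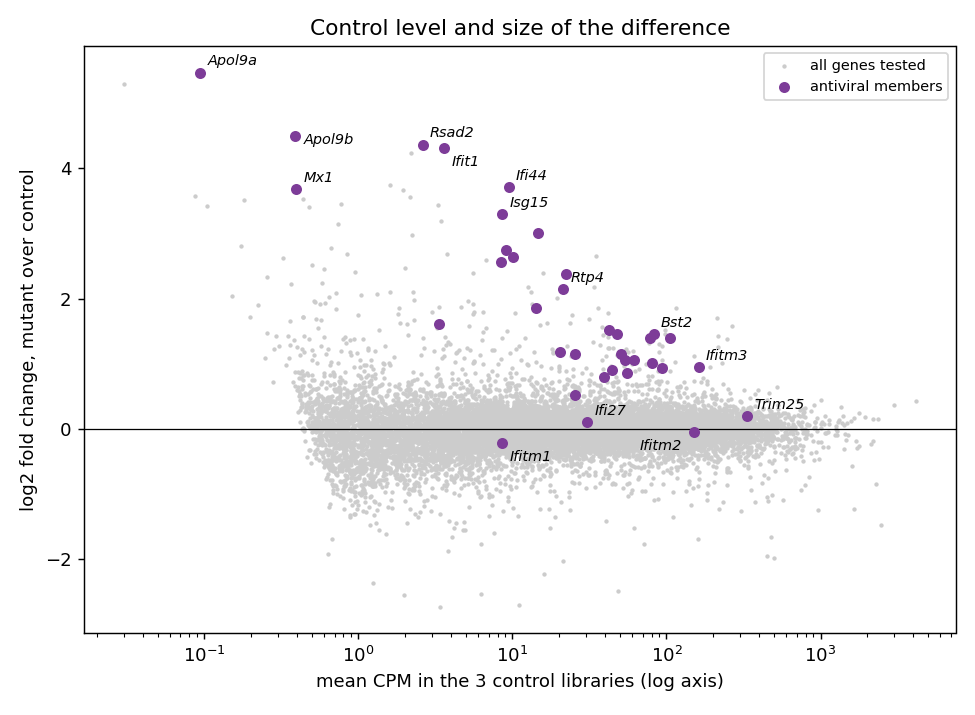
Mean CPM in the 3 control libraries (log axis) against the log2 fold change of mutant over control for the 36 genes (purple) and all genes tested (grey). The genes with the largest fold changes have control means under 10 CPM, while the 4 genes over 100 CPM, Trim25, Ifitm2, Ifitm3 and Parp14, lie between -0.04 and 1.40.

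The difference was graded among the mutant libraries. For each gene the log2 CPM of a library was taken relative to the control mean, and the median over the 36 genes was 0.84, 1.41 and 1.75 in mutant replicates 1, 2 and 3, against -0.03, 0.10 and -0.07 in control replicates 1, 2 and 3. Over all genes tested the same medians lay between 0.0038 and 0.0098 in the 6 libraries. Mutant replicate 1 was the lowest mutant library in 32 of the 36 genes, where it was lowest in 31.8% of all genes tested, in 12 of 13 type II interferon-biased genes and in 27 of 47 other type I interferon-induced genes. Mutant replicate 3 was the highest in 26 of the 36 genes, where it was highest in 34.4% of all genes tested. The exceptions to the low place of mutant replicate 1 were Trim25, Ifi27, Ifitm1 and Ifitm2, none of them called. The gap between the highest and the lowest mutant library had a median of 0.95 on the log2 scale over the 36 genes and 0.27 over all genes tested. The median gap was 1.17 over 12 macrophage and monocyte markers, so a wide gap was not particular to the 36 genes. It was 0.77 over the type II interferon-biased genes, 0.36 over the other type I genes and 0.16 over the endothelial markers. Among the 36 genes the gap was widest in Apol9b, at 3.02, and narrowest in Trim25, at 0.12. Even in mutant replicate 1, Rsad2, Ifi44, Ifit1 and Isg15 were 9.88-fold, 6.98-fold, 5.42-fold and 4.95-fold above the highest control library.

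**Figure D5:**
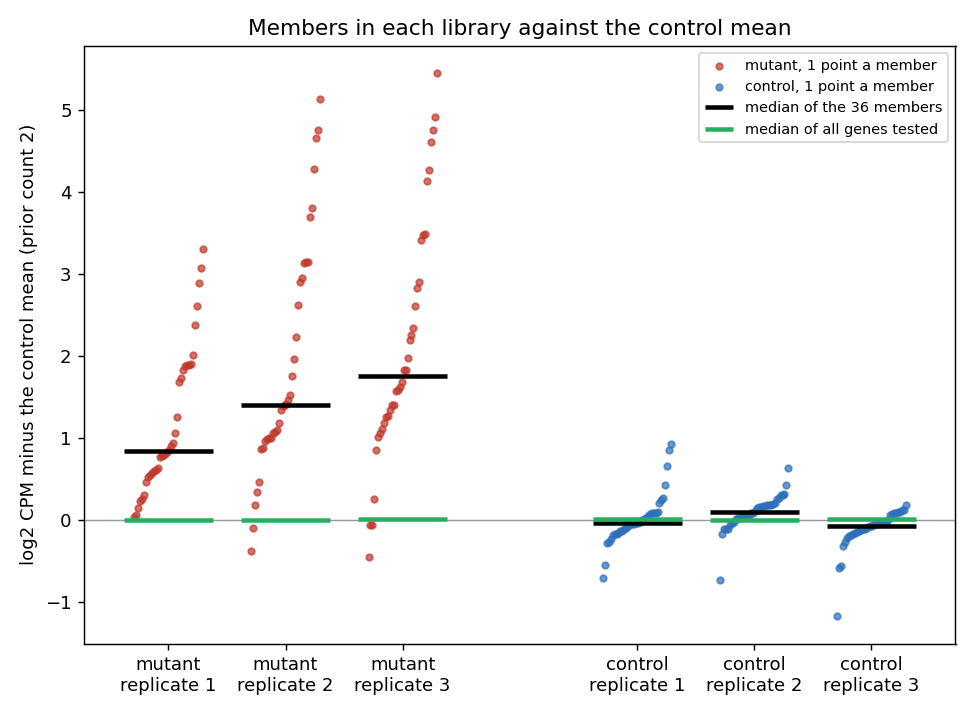
Log2 CPM of each of the 36 genes minus its control mean (1 point a gene, sorted within each library), for the 3 mutant and the 3 control libraries. The black bars are the medians, 0.84, 1.41 and 1.75 in mutant replicates 1, 2 and 3, and the green bars are the medians of all genes tested, near 0 in each library.

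Several other values moved with this order or stood beside it, and their part in it was not tested. Xist, the RNA made from the inactive X chromosome, was 1.21, 569.5 and 956 CPM in mutant replicates 1, 2 and 3, against 1.07, 1333 and 1197 CPM in control replicates 1, 2 and 3, so each group held 1 library with almost none. A covariate for low or high Xist was chosen after seeing the data. With it, 25 of the 36 genes were called, beside 273 of all 14934 genes tested called higher. The median log2 fold change of the 36 was then 1.40. As each group held 1 library with almost no Xist, this covariate could hardly change the difference between the groups. Nothing about Xist is read from that fit. Control replicate 1, which also had almost no Xist, had a median of -0.03 for the 36 genes. Smad4 itself was lowest in mutant replicate 2, not in replicate 1 or 3.

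Leukocytes can also express interferon-induced genes, and their markers were present in the libraries. Of 12 macrophage and monocyte markers 0 were called by edgeR and 2 had an unadjusted p under 0.05, and their summed level was 824 to 903 CPM in mutant and 809.5 to 953 CPM in control libraries. On this list 7 of the 12 markers, among them the complement genes C1qa, C1qb and C1qc, were lowest in mutant replicate 1 and highest in mutant replicate 3, as 26 of the 36 genes were. The median of the list relative to the control mean was -0.22, -0.05 and 0.54 on the log2 scale in mutant replicates 1, 2 and 3. Marco and Lyz2 had the opposite order, with 34.3, 21.8 and 12.4 CPM for Marco in mutant replicates 1, 2 and 3. Ly6c2 had 4.17, 4.21 and 13.1 CPM in mutant libraries and 3.59, 2.06 and 3.62 CPM in control libraries, the 1 marker of the list whose mutants all lay above the controls. C1qa had 20.9, 39.6 and 50.1 CPM in mutant libraries and 22.6, 26.1 and 33.7 CPM in control libraries, with groups that overlapped. The 8 neutrophil markers summed to 87.8 to 129 CPM in mutant and 56.6 to 128 CPM in control libraries, and the 9 lymphocyte markers to 152 to 208 CPM in mutant and 133 to 148 CPM in control libraries, with 0 called in either list and, of those tested, 0 and 2 with an unadjusted p under 0.05. These 2 were the B cell genes Ms4a1 and Cd79a. Ms4a1 had 74.3, 56.7 and 91.2 CPM in mutant libraries and 49.9, 45.003 and 53.5 CPM in control libraries, and Cd79a had 45.3, 46.6 and 53.3 CPM in mutant libraries and 38.3, 36.2 and 38.5 CPM in control libraries. In both, as in Ly6d below, the mutants all lay above the controls. Of 6 plasmacytoid dendritic cell markers, a cell type known as a strong interferon source, the defining gene Siglech was at 0.329 to 0.634 CPM in mutant and 0.420 to 0.530 CPM in control libraries, while Ly6d, which B cells also make, was called higher. Ly6d had 27.3, 23.0 and 31.4 CPM in mutant libraries and 15.3, 15.1 and 17.4 CPM in control libraries (edgeR adjusted p = 0.0147), and the call was lost without control replicate 2 (0.0599) or mutant replicate 3 (0.0546). The 5 platelet markers summed to 51.4 to 75.1 CPM in mutant and 48.6 to 71.6 CPM in control libraries. On the lists of alveolar epithelial, fibroblast and smooth muscle markers 0 were called by edgeR, with 0 at an unadjusted p under 0.05. The 7 alveolar epithelial markers summed to 2426 to 2852 CPM in mutant libraries and, more widely spread, 1809 to 3577 CPM in control libraries. The 6 fibroblast markers summed to 607 to 972 CPM in mutant and 539 to 805 CPM in control libraries. The 6 smooth muscle markers summed to 284 to 423 CPM in mutant and 230 to 343 CPM in control libraries. Of 5 erythroid markers the 4 globin genes were at 0 in every library, while Alas2 had 108 to 211 reads. Since the counting method is not given, the globin counts of 0 need not mean that their transcripts were absent. Alas2, the 1 tested, was not called but had an unadjusted p under 0.05. The share of the difference in the 36 genes that any of these cells carry was not tested.

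Few reads were counted on the interferon genes themselves. How reads that fit more than 1 gene were counted is not given, so a count of 0 need not mean that no transcript was present. Of 21 interferon genes, 13 had no read in any library and none passed the filter on low counts. All 21 together had 4, 9 and 14 reads in mutant replicates 1, 2 and 3, against 3, 1 and 9 reads in control replicates 1, 2 and 3. A total of 3 reads, taken as the floor of detection, corresponds to 0.146 to 0.188 CPM in mutant and 0.140 to 0.214 CPM in control libraries. Ifnb1 had 2, 2 and 0 reads in mutant libraries and no reads in control libraries, which is too few to compare.

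Among the genes of the interferon receptors and of the factors they activate, Stat2, Irf9, Ifnar1 and Ifnar2 did not pass. Stat2, a transcription factor gene, had 165, 189 and 232 CPM in mutant libraries and 61.0, 154 and 102 CPM in control libraries, and Irf9, its partner, had 122, 131 and 146 CPM in mutant libraries and 51.7, 102 and 75.3 CPM in control libraries. In both genes the groups did not overlap, but the controls were spread widely, with control replicate 1 lowest as in Trim25. The receptor genes Ifnar1 and Ifnar2 had log2 fold changes of 0.25 and 0.31 with SEs of 0.10 and 0.09 (edgeR adjusted p = 0.295 and 0.108).

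Of 14 sensors of nucleic acids and their adaptors, 3 were called higher, 0 lower and 11 did not pass, and DESeq2 called 6 higher. The 3 were the RIG-I-like receptors of viral RNA, which interferon is known to induce. Dhx58 had a log2 fold change of 2.59 (SE 0.31, edgeR adjusted p = 0.00548), and the call was lost without control replicate 1 (0.0564) or control replicate 3 (0.0543). Ifih1, which encodes MDA5, had a log2 fold change of 1.56 (SE 0.21, edgeR adjusted p = 0.00666). Ddx58, which encodes RIG-I, had a log2 fold change of 1.00 (SE 0.15, edgeR adjusted p = 0.00732), and its call ended without mutant replicate 2 (0.0630). Zbp1, a sensor of Z-form nucleic acid, did not pass (edgeR adjusted p = 0.0713) although its groups did not overlap, with 4.72, 26.5 and 33.1 CPM in mutant libraries and 1.45, 1.85 and 1.54 CPM in control libraries. It shared the low place of mutant replicate 1. The adaptor gene Mavs and the factor gene Irf3 had log2 fold changes of -0.09 and 0.01 with SEs of 0.11 and 0.09. Tmem173 and Tlr3 did not pass either (edgeR adjusted p = 0.155 and 0.100), but their groups did not overlap. Their log2 fold changes were 0.55 and 0.47 with SEs of 0.17 and 0.13. Of the 14 genes, 7 had an unadjusted p under 0.05 by edgeR, the 3 called among them.

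Beyond the 36 genes, the type I interferon programme was sampled by a wider list. Of 47 other interferon-induced genes, listed from general knowledge, 5 were called higher, 0 lower and 42 did not pass, and their median log2 fold change was 0.28. The count of 5 became 1 without control replicate 2 or 3, 0 without mutant replicate 2, 10 without mutant replicate 1 and 11 in DESeq2. The 5 were Ddx60, an RNA helicase gene, Isg20, an exonuclease gene, Ube2l6, which encodes the ISG15-conjugating enzyme, Nmi, an interferon-induced adaptor gene, and Ogfr, the opioid growth factor receptor gene. Ube2l6 had 48.4, 79.2 and 92.0 CPM in mutant libraries and 29.4, 21.3 and 20.3 CPM in control libraries, a log2 fold change of 1.63 (SE 0.26, edgeR adjusted p = 0.0175). Its call ended without control replicate 2 (0.0952), control replicate 3 (0.0811) or mutant replicate 2 (0.0907). Ddx60 had a log2 fold change of 1.92 and Isg20 a log2 fold change of 1.58, with SEs of 0.27 each (edgeR adjusted p = 0.0115 and 0.0148). Both calls ended without mutant replicate 2 (0.0571 and 0.0921) and without control replicate 3 (0.0786 and 0.0529), that of Ddx60 also without control replicate 1 (0.0715) and that of Isg20 also without control replicate 2 (0.0784). Nmi and Ogfr, with log2 fold changes of 0.75 and 0.66, lost their calls without mutant replicate 2 (0.110 and 0.0746) or control replicate 2 (0.0693 and 0.0654), that of Nmi also without mutant replicate 3 (0.0603) and that of Ogfr also without control replicate 3 (0.0544).

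Of 13 tested genes that respond to interferon-gamma more than to type I interferon, 6 were called higher, 0 lower and 7 did not pass, and the count became 2 without control replicate 1, 3 without control replicate 3 and 1 without mutant replicate 2. The 6 were the GTPase genes Gbp2, Gbp3, Igtp, Irgm1, Irgm2 and Iigp1, with log2 fold changes of 0.72 to 2.18, which type I interferon also induces. The calls of Gbp2, Gbp3, Igtp, Irgm1 and Iigp1 ended without mutant replicate 2 (0.144, 0.0666, 0.0534, 0.119 and 0.0727). Leaving out any control replicate also ended the calls of Gbp2 and Igtp, as did leaving out control replicate 1 or 3 for Gbp3, control replicate 1 for Iigp1 and mutant replicate 3 for Irgm1. Irgm2 kept its call without any of the 6 libraries in turn, with a log2 fold change of 1.24, an SE of 0.15 and an edgeR adjusted p of 0.00274. The class II genes tested, their regulator and Irf1 did not pass. Ciita had 4.12, 7.60 and 7.61 CPM in mutant libraries and 10.1, 8.05 and 5.21 CPM in control libraries, and H2-Ab1 had 32.2, 71.1 and 52.8 CPM in mutant libraries and 57.3, 49.99 and 38.9 CPM in control libraries. Irf1 overlapped fully, with 671, 663 and 521 CPM in mutant libraries and 468, 746 and 623 CPM in control libraries.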

How the data were processed

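The deposited table held whole-number counts of reads per gene for 6 polyadenylated RNA libraries, made by the authors, and 0 of its values differ from the deposited per-library files. The build mm10 and the tool DESeq2, whose version and role are not stated, come from the submitters' processing notes. Aligner, counter, annotation and strand setting: not given in the sources used here. Rows that name no gene were left out, of which reads with no feature took 53.9% to 58.2% of each library. Counting error only is covered by the floor of 3 counts.

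From the 24951 genes, edgeR 4.0.16 (R 4.3.3) kept 14934 by filterByExpr, scaled with TMM factors and fitted a quasi-likelihood model to the 3 mutant and 3 control libraries, with Benjamini-Hochberg adjustment over all genes tested and a threshold of 0.05. CPM use TMM-scaled library sizes, and log2 CPM a prior count of 2. Alternatives were DESeq2 1.42.0 and its size factors, upper-quartile factors, limma-voom 3.58.1, no filter, a replicate block, each library left out, and, added after seeing the data, a covariate for Xist. The fits were also run on simulated counts, drawn independently for each gene and without a shift of 1 library shared by many genes. Nothing about the 36 genes is read from that run. As a check for duplicate deposits of a library, the counts of replicate pairs were compared (chi-square per degree of freedom 12.3 to 22.2), and none was counted as 1 sample. Positions and exon lengths are from GENCODE M21 and promoter windows from RefSeq, both on GRCm38. All genes of the lists were matched by symbol or older symbol. The 36 genes, their roles and the other lists were chosen with earlier results of these data known. Named beyond the 36 genes were Smad4, genes of the ligand, receptor and sensor lists (the count of calls for receptors and transducers is not reported here), up to 6 called genes with the smallest p of each wider list and the defining markers of a cell type, and Ciita, H2-Ab1, Irf1, Xist, Cd79a and Ms4a1 were added after their values were seen.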

Additional observations from a re-analysis of the deposited data

How the results depend on the processing

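The median log2 fold change of the 36 genes stayed between 1.17 and 1.64 over the fits tried, and mutant replicate 1 stayed the lowest in 32 of the 36 genes under each scaling. Counts of calls moved more, and the cause was not tested. With 1 library left out, the 36 genes gave 12 to 30 calls, the other type I genes 0 to 10 higher and 0 to 1 lower, the sensors 2 to 4 and the type II genes 1 to 6. DESeq2 called 11 of the other type I genes higher and 1 lower, and 6 sensors. No low-count filter gave 18 calls among the 36 genes and upper-quartile factors gave 22. Over all genes tested, calls higher were 288 in the main fit and 131 to 257 with 1 library left out. They were 443 in DESeq2, 330 with no low-count filter and 273 with upper-quartile factors. The longer promoter motif was held by 7 genes, against 12 with the core. With 1 library left out, the sign turned for uncalled genes. Trim25 ranged from -0.035 (without control replicate 1) to 0.43, Ifi27 from -0.015 (without control replicate 3; -0.012 without mutant replicate 2) to 0.20, and Ifitm2 from -0.083 to 0.0068 (without control replicate 3). Replicate numbers were not taken as a pairing of the libraries in the main fit. The correlations of same-numbered libraries were -0.0096, 0.019 and 0.16, the last the largest of all pairs, and not every library correlated best with its own number. With 3 libraries a group, these correlations cannot settle whether the libraries were paired. With the replicate number as a block, 24 of the 36 genes were called and 1 of the other type I genes lower. That block gave 281 calls higher over all genes tested. Depth limits the size of the differences of Apol9a, Apol9b and Mx1, which rest on 6, 21 and 22 control reads.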
